A study of Mus musculus with 6 samples.

Results

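The genes described here encode the oxidative phosphorylation machinery, together with a few of its assembly factors. They were taken as the protein-coding genes whose GENCODE M21 symbol starts with Nduf, Uqcr, Atp5 or Cox4 to Cox8, is Sdha to Sdhd, or starts with mt-Nd, mt-Co, mt-Atp or mt-Cytb. The rule found 107 of the 55536 genes listed, of which 94 are nuclear and 13 lie on mitochondrial DNA (mtDNA). By complex, the nuclear genes number 46 for complex I, 4 for complex II, 8 for complex III, 18 for complex IV and 18 for complex V. The mtDNA genes number 7 for complex I, 1 for complex III, 3 for complex IV and 2 for complex V. The symbol rule is wider than the word subunit, since Ndufaf1 to Ndufaf8 are assembly factors of complex I. It also leaves out Cyc1, a subunit of complex III, which was counted in a list of electron carriers.

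RNA was sequenced from SVEC4-10, which the labels call immortalized mouse endothelial cells. Nattokinase was given for 24 hours in 3 libraries, and 3 control libraries came from untreated cells of the same line. Nattokinase is a fibrin-degrading serine protease from fermented soybeans, and the labels used here do not state its dose. No label says that the replicates were grown separately, so a p-value reflects only how far these samples spread, and that spread may be technical.

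Oxidative phosphorylation takes place in the inner mitochondrial membrane. Complexes I and II pass electrons from NADH and succinate to ubiquinone, complex III passes them to cytochrome c and complex IV to oxygen, and complex V uses the proton gradient to make ATP. Most subunits are made from nuclear genes and imported, while a small set of core hydrophobic subunits is transcribed from both strands of mtDNA as long precursors that are cut at tRNAs. Endothelial cells are known for drawing most of their ATP from glycolysis, although their mitochondria remain active in biosynthesis and signalling.

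The deposited values are FPKM, read counts scaled by exon length and by the library total, and assigned reads numbered 17525090 to 18341370 in nattokinase libraries and 15044778 to 16496433 in control libraries. A gene with 2 kb of exons and 3 reads would have 0.082 to 0.0997 FPKM, which covers counting error only. Of 12 endothelial markers none reached the level needed for testing, against the label. Pecam1 had at most 1 read in the nattokinase libraries and 3 in the controls, and Erg, Cldn5, Tie1 and Emcn had none in any library, whereas Col1a1, a fibrillar collagen gene, averaged 1236 FPKM in nattokinase and 1403 FPKM in control libraries. Of 8 fibroblast markers 6 were tested, 3 with a positive and 3 with a negative log2 fold change and a median of -0.0040 on the scale given below. Groups were separate for 2 with nattokinase higher and 2 with it lower (66.7%, beside 28.8% of all genes tested). Only Col3a1 was called, lower (16.7%, beside 8.85% of all genes tested). Of 5 leukocyte and 5 epithelial markers 1 each was tested: Krt8 was not called, while Cd68 was called higher and averaged 2.42 FPKM in nattokinase and 1.19 FPKM in control libraries, with Ptprc at no read. A set of 6 rRNA-like genes took 0.732% to 0.822% of reads in nattokinase libraries and 2.55% to 3.98% in controls, and the part of these differences in the results below was not tested except where a rescaled value is given. In bulk RNA, fewer cells of a type and less RNA per cell cannot be told apart.

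The share of reads on mtDNA genes was higher in nattokinase libraries, while that on nuclear genes was not separable between the groups. The 13 mtDNA genes took 2.32%, 2.48% and 2.33% of assigned reads in nattokinase libraries, against 2.11%, 2.18% and 2.27% in control libraries. Every nattokinase library was above every control library. Of these reads mt-Co1 alone took 1.24%, 1.30% and 1.26% in nattokinase libraries and 1.09%, 1.17% and 1.19% in controls, a difference in means of 0.11 percentage points. The means over the 13 genes were 2.38% ± 0.091 and 2.19% ± 0.077 (SD, n = 3 each), a difference of 0.19 percentage points with no test. It was 0.136 as a share of reads on protein-coding genes and 0.143 as a share of reads on nuclear protein-coding genes. The 94 nuclear genes together took 0.885%, 0.854% and 0.856% of reads in nattokinase libraries, against 0.814%, 0.921% and 0.929% in controls, and there the groups overlapped. Per read on a nuclear member, the mtDNA members had 2.62, 2.90 and 2.72 reads in nattokinase libraries and 2.60, 2.37 and 2.44 in control libraries, again without overlap.

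Single genes were tested with limma on log2(FPKM + 1), so a log2 fold change is on that scale and understates the change of genes at low FPKM. A gene was tested if 3 or more libraries had it at 1 FPKM or above, which 10913 genes met, and p-values were adjusted by the Benjamini-Hochberg method over all of them. At an adjusted p of 0.05, 8.85% of tested genes were called, 5.61% higher and 3.24% lower in nattokinase. Groups did not overlap for 28.8% of tested genes, 17.4% with nattokinase higher and 11.4% with nattokinase lower. Of the mtDNA genes 12 of 13 were tested, and 1 was called higher (8.33%) and 0 lower by limma, with 4 below an unadjusted p of 0.05. Groups did not overlap for 6 of the 12, all with nattokinase higher. The median log2 fold change of the 12 was 0.15, beside 0.012 over all genes tested. Nattokinase replicate 2 had the highest level of any library for 6 of the 7 mtDNA genes above 100 FPKM. The median log2 fold change of these 7 was 0.17, and 0.12 without that library.

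mt-Nd2, a core membrane subunit of complex I (chrM:3914-4951, plus strand, GRCm38), had 1275, 1341 and 1253 FPKM in nattokinase libraries and 1073, 1062 and 1162 FPKM in control libraries. The groups did not overlap, and the ratio of mean FPKM was 1.17. By limma its log2 fold change was 0.23 (SE 0.058, 95% interval 0.10 to 0.36) with an adjusted p of 0.0365. The call did not survive several alternatives: limma gave an adjusted p of 0.0538 when libraries were rescaled to equal protein-coding totals, and 0.172 without nattokinase replicate 2. Leaving out nattokinase replicate 1 or 3 or control replicate 2 also ended it, with limma adjusted p of 0.0916, 0.109 and 0.149. Its log2 fold change stayed between 0.20 and 0.27 over all 18 alternatives.

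The other abundant transcripts are given by complex. mt-Nd1, which forms part of the ubiquinone pocket of complex I, had 2329, 2502 and 2303 FPKM in nattokinase libraries, against 1994, 2097 and 2208 FPKM in controls. mt-Nd4, a proton-pumping subunit, had 1016, 1196 and 1004 FPKM in nattokinase libraries, against 970.5, 896 and 987 FPKM in controls. Both had separate groups, yet limma gave adjusted p of 0.116 for mt-Nd1 and 0.219 for mt-Nd4, with log2 fold changes of 0.18 and 0.17. Without nattokinase replicate 2 the log2 fold change of mt-Nd4 was 0.088 (limma adjusted p = 0.589). mt-Nd5, another pumping subunit, had 1225, 1403 and 1206 FPKM in nattokinase libraries and 1407, 1349 and 1412 FPKM in controls. mt-Nd6, the only subunit gene on the other strand of mtDNA, had 1453, 1617 and 1464 FPKM in nattokinase libraries and 1533, 1577 and 1560 FPKM in controls. For these 2 neighbours the groups overlapped and the log2 fold change was negative, -0.12 for mt-Nd5 (limma adjusted p = 0.318) and -0.044 for mt-Nd6 (limma adjusted p = 0.721). Without nattokinase replicate 2 they were -0.19 and -0.094, and without nattokinase replicate 1 or 3 that of mt-Nd6 was -0.017 or -0.023. Their annotated ends overlap on opposite strands, and without stated strand use their reads cannot be told apart there.

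mt-Cytb, the cytochrome b of complex III, had 2450.0, 2575 and 2468 FPKM in nattokinase libraries, against 2153, 2111 and 2309 FPKM in control libraries. Its groups did not overlap and its log2 fold change of 0.19 (SE 0.059) fell short of the threshold, with a limma adjusted p of 0.0814. Without control replicate 1 it was 0.18, with a limma adjusted p of 0.038. mt-Co1, the catalytic subunit of complex IV and the most abundant member, had 8019, 8403 and 8143 FPKM in nattokinase libraries and 7059.5, 7596 and 7729.7 FPKM in controls. The groups were separate, the log2 fold change was 0.13, and the limma adjusted p was 0.246.

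**Figure D1:**
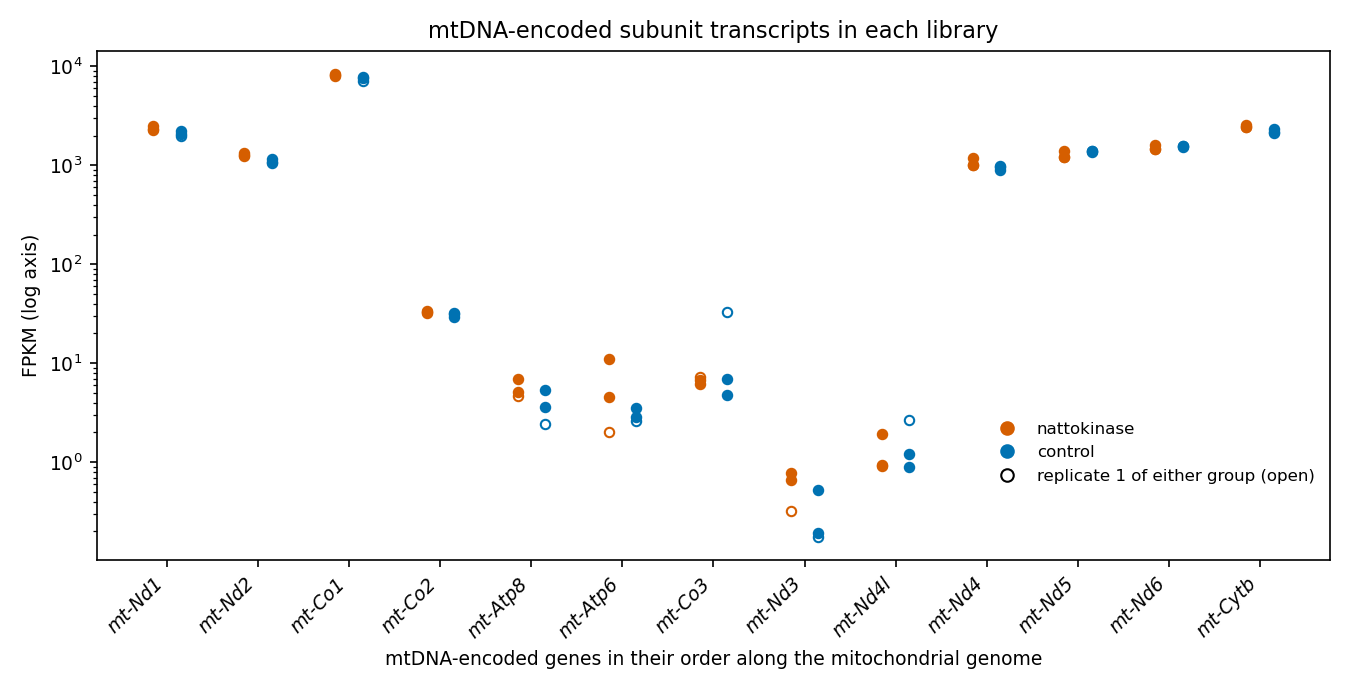
FPKM (log axis) of the 13 mtDNA genes in their order along mtDNA, 1 point per library, nattokinase in orange and control in blue, with replicate 1 of each group open. The 7 abundant genes lie between 896 and 8403 FPKM and the other 6 at or below 33.6 FPKM, and control replicate 1 stands out at mt-Co3.

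A large gap separated the 7 transcripts above 100 FPKM, which held 99.85% of the reads on mtDNA members, from the other 6. The middle of the genome, from mt-Co2 to mt-Nd4l, was listed at far lower levels than its flanks. mt-Co2, which carries the copper site that receives electrons from cytochrome c, had 32.7, 33.6 and 32.2 FPKM in nattokinase libraries and 31.1, 32.0 and 29.4 FPKM in controls, with separate groups, a log2 fold change of 0.089 and a limma adjusted p of 0.300. mt-Co3, the third core subunit of complex IV, had 7.28, 6.19 and 6.82 FPKM in nattokinase libraries and 32.7, 4.75 and 6.88 FPKM in controls. The spread came from control replicate 1, where mt-Co3 had 415 reads, against 56 and 89 in the other controls and 85 to 103 in nattokinase libraries. mt-Atp6, the complex V subunit that lines the proton path, had 2.04, 4.61 and 10.97 FPKM in nattokinase libraries and 2.63, 3.51 and 2.85 FPKM in controls. mt-Atp8, a small complex V subunit, had 4.62, 6.99 and 5.08 FPKM in nattokinase libraries, against 2.42, 3.58 and 5.35 FPKM in controls. For mt-Co3, mt-Atp6 and mt-Atp8 the groups overlapped. mt-Nd4l, a small complex I subunit, rested on 5, 10 and 5 reads in nattokinase libraries and 13, 4 and 6 in controls. mt-Nd3, another small complex I subunit, rested on 2, 4 and 5 reads in nattokinase libraries and 1, 1 and 3 in controls and was not tested.

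The stretch from mt-Co1 to mt-Nd4 has a nearly identical copy on the minus strand of nuclear chromosome 1, annotated as 7 unprocessed pseudogenes between 24611535 and 24616197 (GRCm38). The first 60 bases of 3 pairs are shown because they set out how alike the gene and its copy are, with capitals at the bases that differ. The mt-Co1 window starts at base 1054 of the gene, where its copy begins.
mt-Co3: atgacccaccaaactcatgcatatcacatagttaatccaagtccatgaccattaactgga
Gm28437: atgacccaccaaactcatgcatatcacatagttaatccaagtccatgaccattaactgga
mt-Nd3: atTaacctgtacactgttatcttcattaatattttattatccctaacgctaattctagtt
Gm28438: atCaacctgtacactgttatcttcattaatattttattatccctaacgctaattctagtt
mt-Co1: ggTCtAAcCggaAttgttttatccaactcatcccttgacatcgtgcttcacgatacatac
Gm29216: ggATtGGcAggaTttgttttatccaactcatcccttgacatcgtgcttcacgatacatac

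Over its whole length Gm28437 did not differ from mt-Co3 at any of 783 aligned bases. Gm28661 differed from mt-Co2 at 0 of 681, Gm10925 from mt-Atp6 at 0 of 678, Gm10222 from mt-Nd4l at 0 of 294 and Gm28439 from the first part of mt-Nd4 at 0 of 876. Gm28438 differed from mt-Nd3 at 1 of 345 bases, written T3C with positions counted from 1 at the gene's 5′ end and the mtDNA base first. Gm29216 covers the last 492 bases of mt-Co1 and differed at 6 of them, T1056A, C1057T, A1059G, A1060G, C1062A and A1066T, all within the window shown. A 100-base read that such a pair shares in full has more than 1 placement. The share of 100-base windows also held by another annotated gene was 99.85% for mt-Co3, 99.5% for mt-Co2, 99.5% for mt-Atp6, 98.5% for mt-Nd4l and 97.6% for mt-Nd3. It was 60.8% for mt-Nd4, 30.8% for mt-Co1, 3.20% for mt-Nd2 and 0 for mt-Nd1, mt-Nd5, mt-Nd6 and mt-Cytb. The values of the 5 genes above 97% are therefore uncertain as levels, among them mt-Co2, whose groups were separate. Those of mt-Nd4 and mt-Co1 are uncertain in part. mt-Atp8 was also low with a share of 0. By position, most of mt-Atp8 corresponds to a gap of 233 bases between the annotated copies of mt-Co2 and mt-Atp6. Its end overlaps mt-Atp6 and so falls within the copy of that gene. The labels used here do not say how reads with several placements were counted, and the part of that choice in these levels was not tested.

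**Figure D2:**
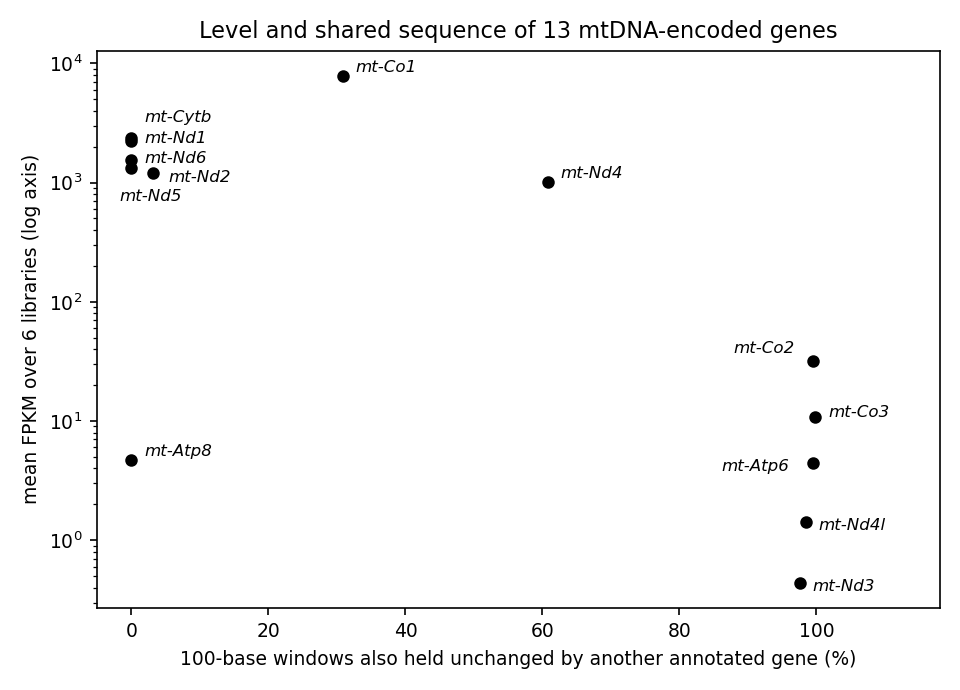
Mean FPKM over 6 libraries (log axis) of each mtDNA gene against the percentage of its 100-base windows that another annotated gene also holds unchanged. The 5 genes with shares of 97.6% or more and mt-Atp8, with a share of 0, are the 6 at low level.

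The 7 chromosome 1 copies had reads of their own. Gm28438, the copy of mt-Nd3, had 288, 242 and 234 reads in nattokinase libraries, against 122, 96 and 99 in controls. It was the single copy called, with a log2 fold change of 1.06 (SE 0.10) and a limma adjusted p of 0.000716. Gm28437, the copy of mt-Co3, had 166, 141 and 246 reads in nattokinase libraries and 74, 84 and 90 in controls, with a log2 fold change of 0.85 and a limma adjusted p of 0.0502. Groups did not overlap for these 2 copies or for Gm28661 and Gm10222, all with nattokinase higher, and they overlapped for Gm10925, Gm28439 and Gm29216. Over all genes tested, groups did not overlap for 28.8% and 8.85% were called. Single libraries stood apart here too: Gm29216 had 581 reads in control replicate 3, against 115 and 97 in the other controls and 127 to 186 in nattokinase libraries. For reads that lie within the identical stretches, an origin in chromosome 1 and in mtDNA cannot be told apart.

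The mitochondrial rRNAs, which are transcribed from the same strand upstream of mt-Nd1, were lower in every nattokinase library than in any control library. mt-Rnr1, the small-subunit rRNA, had 149.9, 152.9 and 138.6 FPKM in nattokinase libraries, against 446, 362 and 271 FPKM in controls. It fell by 1.26 on the log2 scale (SE 0.18), with a limma adjusted p of 0.0144, and this call was lost in 5 of 18 alternatives, among them leaving out any 1 nattokinase library or control replicate 2, with a limma adjusted p of up to 0.0683. mt-Rnr2, the large-subunit rRNA, had 452, 453 and 397 FPKM in nattokinase libraries and 599, 508 and 455 FPKM in controls, with separate groups, a log2 fold change of -0.26 and a limma adjusted p of 0.167. The 6 rRNA-like genes were also lower in nattokinase libraries, as given above, and whether the 2 differences have the same source was not tested. Of 24 mitochondrial rRNA and tRNA genes 17 were tested, and 1 was called higher and 1 lower (11.8%, beside 8.85% of all genes tested). The other call was mt-Tw, the tryptophan tRNA whose annotated start overlaps the end of mt-Nd2, with 52.1 ± 7.9 FPKM in nattokinase and 35.6 ± 2.0 FPKM in control libraries (SD, n = 3 each; log2 fold change 0.53, limma adjusted p = 0.0227). The mt-Tw call held in 7 of 18 alternatives and was lost without nattokinase replicate 2 or 3 or any 1 control (limma adjusted p of 0.0628 to 0.0856).

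The nuclear genes hardly differed between the groups. Of 94 members 84 were tested, and 1 was called higher and 0 lower by limma, 1.19% beside 8.85% of all genes tested, with 3 below an unadjusted p of 0.05 (limma-voom on the recovered reads made the same single call). Their log2 fold changes ran from -0.17 to 0.38 with a median of -0.029. They were positive for 28 and negative for 56, beside 5903 and 5010 of all genes tested. The median absolute log2 fold change was 0.053, beside 0.082 over all genes tested. Groups did not overlap for 4 of the 84 (4.76%), 3 with nattokinase higher and 1 lower, beside 28.8% of all genes tested. On the log2(FPKM + 1) scale the 95% interval lay within 0.585 (the log2 of 1.5) in both directions for 84 of the 84 genes. The same held for 10319 of the 10913 genes tested. For genes at low FPKM, among them Ndufaf4, this is not a bound of 1.5-fold on the level itself.

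**Figure D3:**
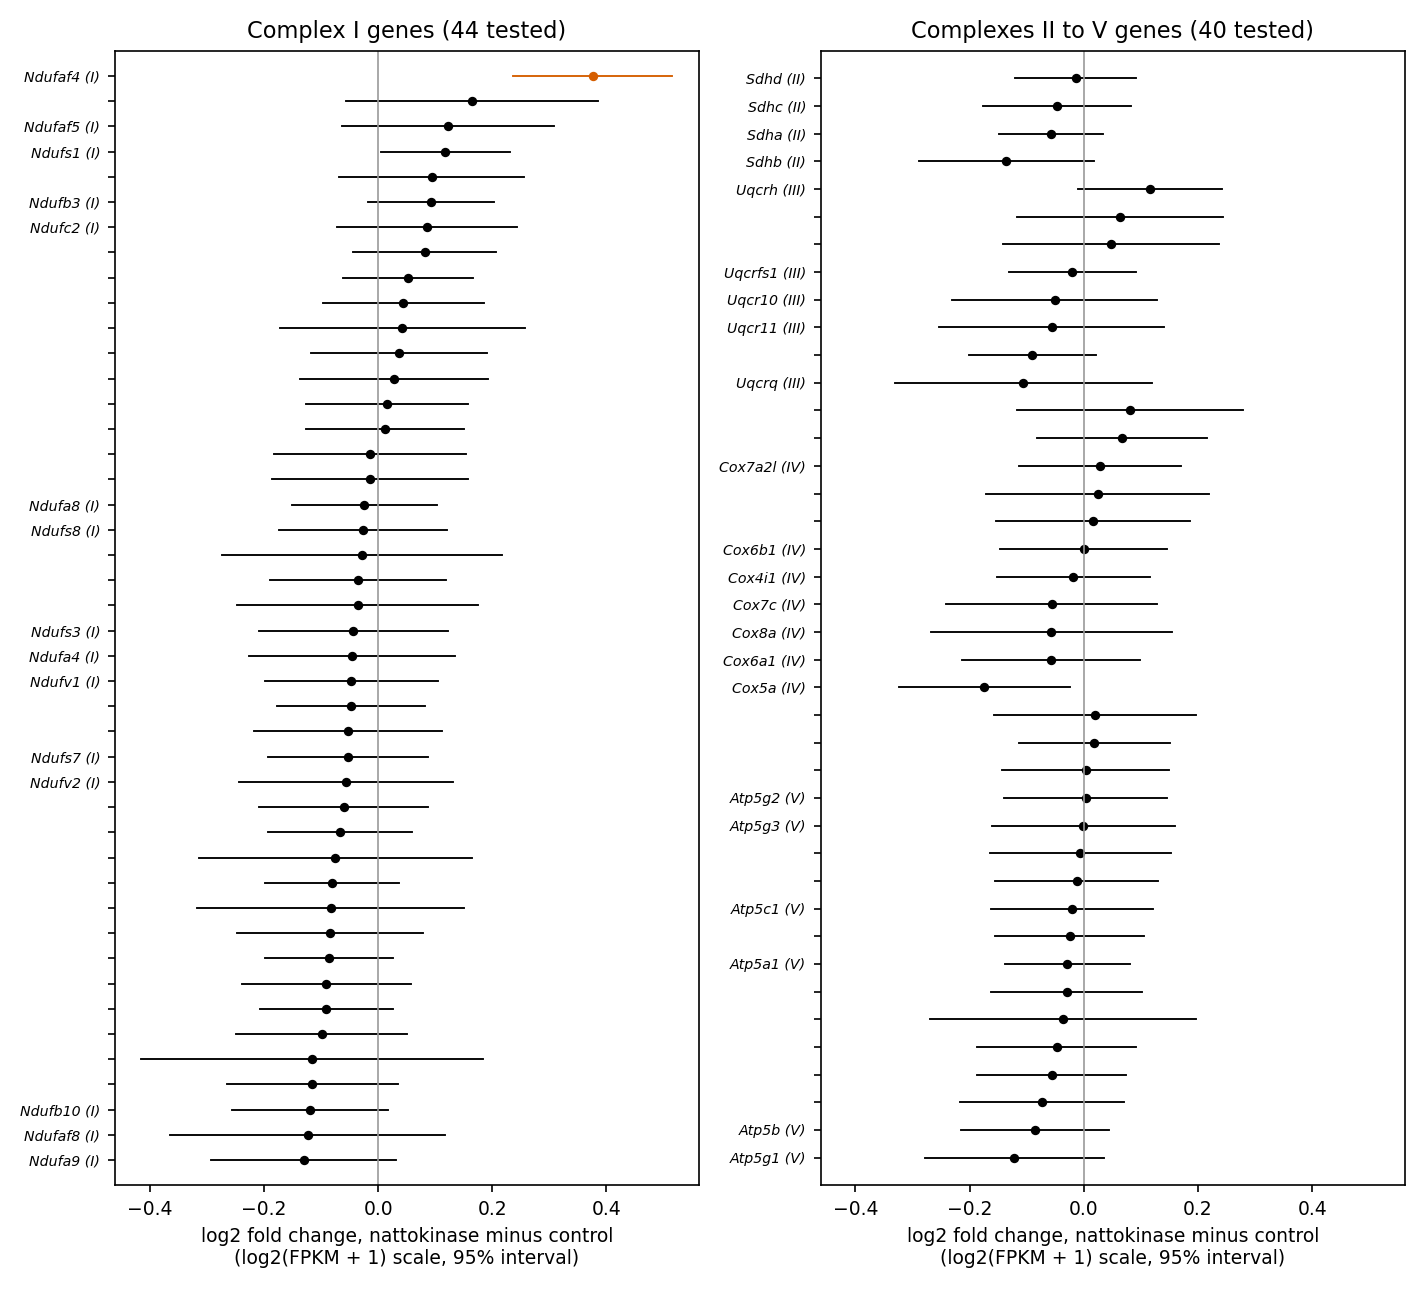
Log2 fold change, nattokinase minus control on the log2(FPKM + 1) scale, with its 95% interval for the 84 tested nuclear genes, ordered by complex and then by value. Genes named in the text are labelled, with the complex in brackets. Ndufaf4, in orange, is the 1 gene called, at 0.38, and the others lie between -0.17 and 0.17.

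The called gene was Ndufaf4, an assembly factor that binds early intermediates of complex I and is not part of the finished enzyme. It lies at chr4:24898083-24905001 on the plus strand (GRCm38), and no other annotated gene overlaps its exons. Its level was 4.29, 4.04 and 4.05 FPKM in nattokinase libraries, from 302, 276 and 290 reads, against 2.81, 3.08 and 2.95 FPKM in control libraries, from 178, 181 and 190 reads. The groups were well apart, at 4.13 ± 0.14 and 2.95 ± 0.13 FPKM (SD, n = 3 each), a ratio of 1.40. Its log2 fold change was 0.38 (SE 0.062, 95% interval 0.24 to 0.52), with a limma adjusted p of 0.0049. The call held in 17 of 17 alternatives that tested the gene, with log2 fold changes of 0.31 to 0.48.

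The other 7 assembly factors of the Ndufaf series were tested and none was called by limma. Their log2 fold changes ran from -0.12 for Ndufaf8 to 0.12 for Ndufaf5. The 8 factors averaged 3.5 to 14.1 FPKM in nattokinase libraries and 2.95 to 13.6 FPKM in control libraries, beside a median of 39.1 FPKM over all tested nuclear members.

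Ndufa8 and Ndufc2 were among the subunits of complex I with the highest levels. Ndufa8, an accessory subunit, averaged 88.0 ± 3.6 and 89.6 ± 5.6 FPKM in nattokinase and control libraries, and Ndufc2, a small accessory subunit, 82.7 ± 1.6 and 78.2 ± 8.2 FPKM (SD, n = 3 each). Neither was called (limma adjusted p of 0.850 and 0.524). Ndufs1, the largest iron-sulfur subunit of the NADH-oxidising arm, had 10.0, 9.86 and 9.68 FPKM in nattokinase libraries, against 8.70, 9.10 and 9.23 FPKM in controls. Its groups were separate and its log2 fold change was 0.12, with a limma adjusted p of 0.199. On the other side Ndufb10, an accessory subunit of the membrane arm, averaged 41.5 ± 2.7 FPKM in nattokinase and 45.2 ± 2.8 FPKM in control libraries, with a log2 fold change of -0.12 and a limma adjusted p of 0.288, and of -0.075 without nattokinase replicate 2 (limma adjusted p = 0.624). Ndufb3, also of the membrane arm, averaged 40.2 ± 1.6 and 37.7 ± 1.5 FPKM in nattokinase and control libraries, with a log2 fold change of 0.092 and a limma adjusted p of 0.311. Among other core subunits of the peripheral arm, Ndufv1, Ndufv2, Ndufs3, Ndufs7 and Ndufs8, had log2 fold changes of -0.056 to -0.027, and none of these was called.

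Ndufa4, which carries a complex I name but is now known as a subunit of complex IV, had a log2 fold change of -0.046. Its paralog Ndufa4l2, known as a target of hypoxia-inducible factors, had 5, 7 and 3 reads in nattokinase libraries and 7, 7 and 2 in controls. Ndufb2, an accessory subunit, averaged 0.935 ± 0.075 FPKM in nattokinase and 0.729 ± 0.12 FPKM in control libraries (SD, n = 3 each) and was below the level needed for testing, although its groups did not overlap.

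Complex II, the succinate dehydrogenase that also serves the tricarboxylic acid cycle, had 4 negative log2 fold changes among its 4 genes and no call by limma. Sdha, the flavoprotein that oxidises succinate, had 56.7, 57.7 and 56.4 FPKM in nattokinase libraries, against 58.4, 60.04 and 59.5 FPKM in controls. It was the only tested nuclear member whose groups were separate with nattokinase lower, and the log2 fold change was small, at -0.058 (limma adjusted p = 0.448). Sdhb, the iron-sulfur subunit, averaged 29.8 ± 2.0 FPKM in nattokinase and 32.9 ± 2.8 FPKM in control libraries, with a log2 fold change of -0.14 (limma adjusted p = 0.279), and of -0.21 without control replicate 1 (limma adjusted p = 0.0509). The membrane anchors Sdhc and Sdhd had log2 fold changes of -0.047 and -0.014, from means of 31.8 and 84.9 FPKM in nattokinase libraries and 32.9 and 85.8 FPKM in controls.

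In complex III the 3 highest genes were Uqcr11 and Uqcr10, both small subunits, and Uqcrfs1, the Rieske iron-sulfur protein. They averaged 104.8, 98.9 and 89.0 FPKM in nattokinase libraries, against 109.4, 102.5 and 90.4 FPKM in controls, and limma gave adjusted p of 0.761, 0.762 and 0.859. Uqcrh, the acidic hinge protein that docks cytochrome c, had 50.4, 50.2 and 48.6 FPKM in nattokinase libraries and 42.1, 47.6 and 48.0 FPKM in controls. The groups were separate but close, with a log2 fold change of 0.12 and a limma adjusted p of 0.255, and without control replicate 1 the log2 fold change was 0.056 (limma adjusted p = 0.384).

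In complex IV Cox8a, Cox6a1 and Cox6b1 had the highest levels. Cox8a, a small subunit of the membrane core, had 270.6, 254 and 264 FPKM in nattokinase libraries, against 231, 299 and 295 FPKM in controls. Cox6a1 averaged 241 ± 11 FPKM in nattokinase and 252 ± 23 FPKM in control libraries, and Cox6b1, which faces the intermembrane space, 169 ± 3.0 and 169.6 ± 15 FPKM in nattokinase and control libraries (SD, n = 3 each). None was called (limma adjusted p of 0.776, 0.690 and 0.999). The lowest log2 fold change of any nuclear member was that of Cox5a, a matrix-facing subunit, with 24.6, 26.1 and 24.5 FPKM in nattokinase libraries and 26.0, 31.5 and 27.96 FPKM in controls. It was -0.17 (95% interval -0.32 to -0.025), the groups overlapped, and the limma adjusted p was 0.151. Without control replicate 2 it was -0.10 (limma adjusted p = 0.394), and without control replicate 1 -0.24 (limma adjusted p = 0.0363).

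Several complex IV subunits come in pairs, with a form made in most tissues and another known from heart and skeletal muscle, testis or lung. These cells used the widespread forms. Cox4i1 had 152, 150.1 and 152 FPKM in nattokinase libraries and 140, 161 and 160.3 FPKM in controls, whereas Cox4i2, the lung form, had 1, 1 and 2 reads in nattokinase libraries and 0, 0 and 2 in controls. Of the forms known from muscle, Cox6a2 had 8, 10 and 5 reads in nattokinase libraries and 5, 2 and 7 in controls. Cox7a1 had 4, 5 and 8 reads in nattokinase libraries and 5, 4 and 1 in controls, and Cox8b had no read in nattokinase libraries and 1 in the controls. Of the forms known from testis, Cox6b2 had 1 read in all in nattokinase libraries and 2 in controls, and Cox7b2 and Cox8c had no read in any library, for which 3 reads in a gene of 500 bases would have given 0.327 to 0.399 FPKM. Cox7a2l, which takes part in joining complexes III and IV into supercomplexes, had 56.2, 59.1 and 56.3 FPKM in nattokinase libraries and 50.5, 59.3 and 58.7 FPKM in controls, with overlapping groups.

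Complex V held the most abundant nuclear member. Atp5b, the catalytic beta subunit, had 426, 402 and 409 FPKM in nattokinase libraries, against 408, 455 and 452 FPKM in controls. The groups overlapped and the log2 fold change was -0.086 (limma adjusted p = 0.424). Atp5a1, the alpha subunit, averaged 197 ± 2.7 FPKM in nattokinase and 202 ± 8.4 FPKM in control libraries, and Atp5c1, the gamma subunit of the rotating stalk, 127 ± 3.3 and 129 ± 11 FPKM in nattokinase and control libraries (SD, n = 3 each). Their log2 fold changes were -0.029 and -0.021 (limma adjusted p of 0.782 and 0.886). Atp5g1, Atp5g2 and Atp5g3 encode the same mature ring subunit with different import sequences. Atp5g2 averaged 94.1 and 94.2 FPKM and Atp5g3 91.3 and 91.6 FPKM in nattokinase and control libraries, while Atp5g1 averaged 17.0 and 18.6 FPKM, and none was called by limma. The symbol Atp5o stands on 2 gene IDs, and 1 of them had no read in any library, with 77.0% of its 100-base windows also held by another gene. In all, 12 of the 84 tested nuclear members shared over 10% of their windows with another gene, and 34.5% overlapped exons of another gene, beside 35.7% of all genes tested.

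Among the controls the nuclear members differed together from library to library. Their summed share of reads was 0.865% ± 0.018 in nattokinase and 0.888% ± 0.065 in control libraries (SD, n = 3 each), a difference of -0.023 percentage points that is smaller than the spread between controls. Control replicate 1 had the lowest level of all 6 libraries for 59 of the 84 tested nuclear members, beside 2796 of 10913 genes tested. It was below both other controls for 92.9% of these members, beside 43.6% of all genes tested, and its median ratio to the mean of the other controls was 0.863. The median deviation from the 6-library mean was 0.025, -0.022 and -0.027 log2 units in nattokinase libraries and -0.12, 0.064 and 0.095 in controls. Cytosolic ribosomal protein genes were lowest in the same library in 76 of 84 cases, so the low level there was not confined to these genes. Tested nuclear members have a median exon length of 1737 bases, beside 4346 over all genes tested. Their median log2 fold change of -0.029 became -0.017 with a correction for exon length, and -0.0095 with exon length and GC content. Rescaling moved it the other way, to -0.064 with protein-coding totals, -0.062 with nuclear protein-coding totals and -0.046 with median-of-ratios scaling. The median over all genes tested went from 0.012 to -0.018, -0.017 and -0.0031 with these. The part of exon length in the low level of control replicate 1 was not tested.

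**Figure D4:**
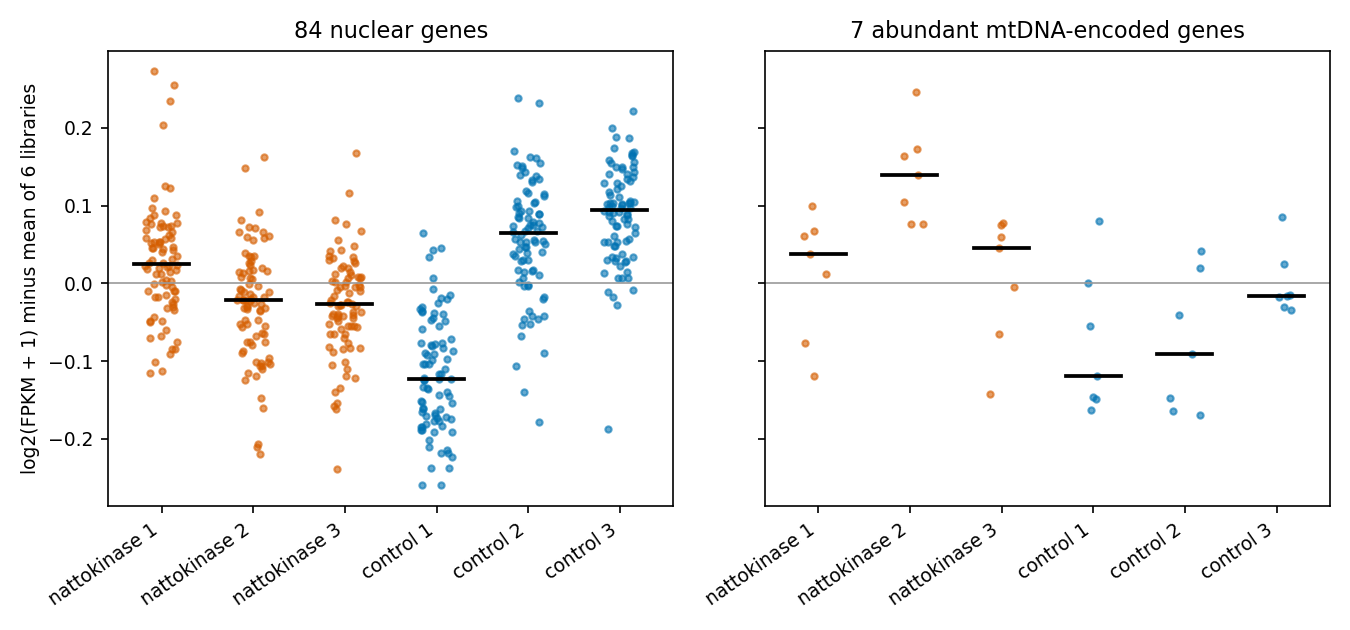
Each point is a gene's log2(FPKM + 1) minus its mean over the 6 libraries, for the 84 tested nuclear members (left) and the 7 abundant mtDNA members (right), with the median as a bar. Control replicate 1 has the lowest nuclear median, at -0.12 log2 units, and the other 2 controls the highest, at 0.064 and 0.095.

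Without control replicate 1, limma called 726 of all 10821 genes tested higher in nattokinase and 481 lower. Among the 84 nuclear members it called 5 lower in nattokinase in addition to Ndufaf4 higher. They were Ndufa9, an accessory subunit of complex I (log2 fold change -0.22, limma adjusted p = 0.0113), Uqcrq of complex III (-0.22, limma adjusted p = 0.0477), and Cox5a, Cox7c and Cox8a of complex IV (-0.24, -0.16 and -0.18, limma adjusted p of 0.0363, 0.0475 and 0.0222). The median over nuclear members was then -0.086. The log2 fold changes of these 5 genes lay between -0.10 for Cox5a and 0.0066 for Cox8a without control replicate 2. The nuclear median was 0.0024 without control replicate 2 and 0.0084 without control replicate 3, so the sign of the nuclear median depended on which control was left out.

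The upstream regions of nuclear members were searched for 3 motifs of factors known to drive respiratory genes: GCGCATGCG for NRF1, CCGGAAG for the ETS family to which GABPA belongs, and AANATGGCG for YY1, on both strands. The RefSeq table (GRCm38.p6) gives 300 bases a start, 250 before and 50 after, and held 79 promoters for 74 of the 94 nuclear members. The NRF1 letters were in 12.7% of member promoters and 1.75% of all 32851 promoters, the ETS letters in 22.8% and 8.86%, and the YY1 letters in 13.9% and 2.38%. Any of the 3 was in 41.8% of member promoters and 12.1% of all. The promoters of 3 members are shown with matches in capitals: the called gene, a member that holds both NRF1 and ETS letters, and the most abundant nuclear member.
Ndufaf4, chr4:24897833-24898132, plus strand: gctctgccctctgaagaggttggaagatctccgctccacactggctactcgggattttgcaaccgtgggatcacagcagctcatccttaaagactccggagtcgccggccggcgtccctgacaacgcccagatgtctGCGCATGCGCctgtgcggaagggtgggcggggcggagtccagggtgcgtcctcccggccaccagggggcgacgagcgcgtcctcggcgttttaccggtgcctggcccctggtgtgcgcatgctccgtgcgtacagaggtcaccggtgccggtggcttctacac
Cox6a1, chr5:115348909-115349208, minus strand: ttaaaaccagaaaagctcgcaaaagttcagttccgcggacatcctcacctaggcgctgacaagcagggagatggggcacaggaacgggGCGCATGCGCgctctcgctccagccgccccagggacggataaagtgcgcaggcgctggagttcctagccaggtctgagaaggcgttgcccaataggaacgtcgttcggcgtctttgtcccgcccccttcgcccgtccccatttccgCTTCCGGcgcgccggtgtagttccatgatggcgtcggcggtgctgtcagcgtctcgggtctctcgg
Atp5b, chr10:128083057-128083356, plus strand: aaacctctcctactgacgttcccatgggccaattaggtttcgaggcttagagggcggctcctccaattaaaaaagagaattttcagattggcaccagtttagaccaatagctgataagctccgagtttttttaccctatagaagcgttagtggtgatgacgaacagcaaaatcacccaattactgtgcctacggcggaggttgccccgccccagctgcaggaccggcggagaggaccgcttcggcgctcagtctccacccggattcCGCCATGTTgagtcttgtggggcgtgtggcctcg

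In Ndufaf4 and in Cox6a1 the NRF1 letters occur on both strands in 1 palindromic stretch, so each stretch is a pair of overlapping matches, and Cox6a1 also holds the ETS letters on the opposite strand. Atp5b holds the YY1 letters on the opposite strand just past the start site. The NRF1 letters were in promoters of 10 members, among them Ndufaf4, with a log2 fold change of 0.38, and Cox6a1, with -0.057. The part of these letters in any change was not tested. A match in these letters is not a measured binding site.

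Other genes of the pathway were counted in 9 lists, which together gave 6 calls higher and 2 lower by limma among 319 genes tested, beside 8.85% called over all genes. The assembly factors outside the symbol rule gave no call by limma, with 34 of 41 tested, 3 below an unadjusted p of 0.05 and a median log2 fold change of -0.024. The closest were Tmem70, which helps build complex V (log2 fold change 0.22, limma adjusted p = 0.0922), and Atpaf2, a chaperone of the complex V alpha subunit (-0.19, limma adjusted p = 0.0973). Cytosolic ribosomal protein genes, an abundant nuclear set of a like size, also gave no call by limma among 84 tested, with 2 below an unadjusted p of 0.05 and a median of 0.010.

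Among the nuclear genes of these lists, the called gene with the largest log2 fold change was a protein import gene. Of 26 import genes 24 were tested and 1 was called higher by limma and 0 lower (4.17%, beside 8.85% of all genes tested). It was Timm10, a chaperone that carries hydrophobic carrier proteins across the intermembrane space, with 15.5, 14.8 and 16.4 FPKM in nattokinase libraries, against 10.4, 9.62 and 11.2 FPKM in controls. The groups were far apart, with a ratio of mean FPKM of 1.50, a log2 fold change of 0.54 (SE 0.064) and a limma adjusted p of 0.000764, and the call held in 18 of 18 alternatives. Timm8a1, a chaperone of the same compartment, had a log2 fold change of 0.24 and a limma adjusted p of 0.0552.

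Of 16 regulators of mitochondrial biogenesis 13 were tested and 2 were called higher (15.4%, beside 8.85% of all genes tested) and 0 lower. Myc, a broad growth regulator, averaged 33.8 ± 2.8 FPKM in nattokinase and 24.0 ± 1.7 FPKM in control libraries (SD, n = 3 each; log2 fold change 0.47, limma adjusted p = 0.0026). Tfb2m, the factor that opens mtDNA promoters for the mitochondrial RNA polymerase, averaged 5.66 ± 0.73 FPKM in nattokinase and 4.22 ± 0.20 FPKM in control libraries (SD, n = 3 each; log2 fold change 0.35, limma adjusted p = 0.0265). The Myc call held in 18 of 18 alternatives and the Tfb2m call in 12 of 17. Of 28 genes for mtDNA upkeep and mitochondrial RNA processing 24 were tested and none was called by limma, with 2 below an unadjusted p of 0.05 and a median log2 fold change of 0.040. The 2 with the smallest p were Mterf4, with a log2 fold change of -0.18 (limma adjusted p = 0.218), and Trmt10c, a subunit of mitochondrial RNase P, with 0.18 (limma adjusted p = 0.162).

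Around the electron transport chain, 25 of 27 carriers and ubiquinone genes were tested and 1 was called higher and 0 lower (4%, beside 8.85% of all genes tested). Coq10b, a ubiquinone-binding protein, averaged 9.89 ± 0.53 FPKM in nattokinase and 8.0 ± 0.36 FPKM in control libraries (SD, n = 3 each; log2 fold change 0.27, limma adjusted p = 0.0176). Coq9, of ubiquinone synthesis, had a log2 fold change of -0.17 (limma adjusted p = 0.140). Of 21 genes of the tricarboxylic acid cycle and pyruvate dehydrogenase, all tested, 1 was called higher and 0 lower (4.76%). Dld, the dihydrolipoamide dehydrogenase shared by several 2-oxoacid dehydrogenases, averaged 26.5 ± 1.9 FPKM in nattokinase and 22.0 ± 0.70 FPKM in control libraries (SD, n = 3 each; log2 fold change 0.26, limma adjusted p = 0.0221). Idh2, the mitochondrial NADP-dependent isocitrate dehydrogenase, had 0.15 (limma adjusted p = 0.106). Of 78 mitochondrial ribosomal protein genes 77 were tested, with 0 called higher and 1 lower (1.30%). The lower one was Mrps34, of the small subunit, at 6.92 ± 0.45 FPKM in nattokinase and 8.70 ± 0.78 FPKM in control libraries (SD, n = 3 each; log2 fold change -0.29, limma adjusted p = 0.0357). The calls of Coq10b and Dld each held in 14 of 18 alternatives and that of Mrps34 in 12 of 18. Those of Coq10b, Dld and Tfb2m were lost without nattokinase replicate 1 or 2 or control replicate 2 (limma adjusted p of 0.0512 to 0.0887), and that of Tfb2m also without control replicate 3 (limma adjusted p = 0.067). That of Mrps34 was lost without nattokinase replicate 2 or 3 or control replicate 2 or 3 (limma adjusted p of 0.107 to 0.131).

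**Figure D5:**
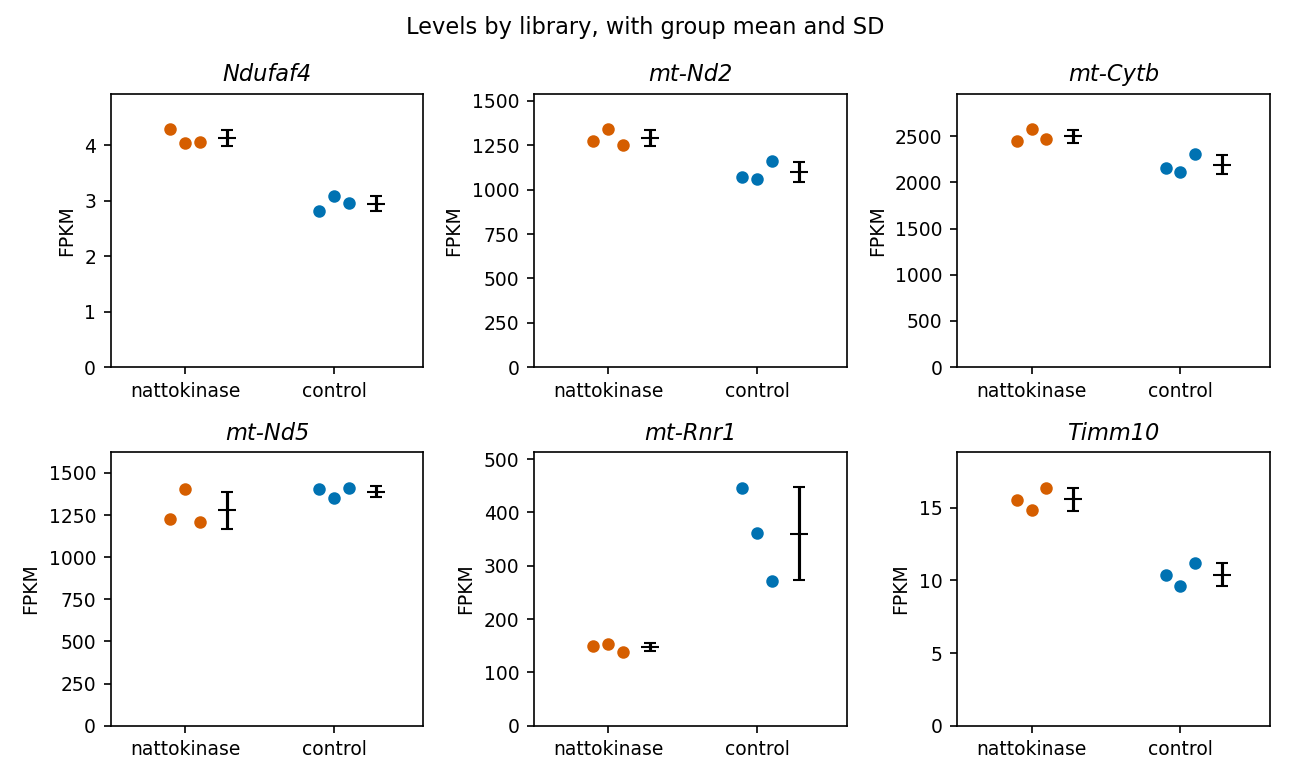
FPKM in each library (points), with the group mean and SD (n = 3 each), nattokinase left and control right, for 4 members, 1 rRNA and 1 import gene. The groups are apart for Ndufaf4, mt-Nd2, mt-Cytb and Timm10 with nattokinase higher and for mt-Rnr1 with nattokinase lower, and they overlap for mt-Nd5.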

How the data were processed

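RNA from 3 nattokinase and 3 control samples of SVEC4-10 cells was analysed from 1 table per sample. The authors deposited FPKM values without a filter for 55536 genes. The submitters' processing notes list DESeq2 1.22.1, featureCounts 1.6.0, HISAT2 2.1.0 and Trimmomatic 0.38 without roles, and the human build GRCh38, whereas all gene IDs matched GENCODE M21 (GRCm38). Poly(A) selection, rRNA depletion, strand use and read length are not given in the sources used here. Multiplied by exon length, 100% of values gave whole reads (within 0.05), 15044778 to 18341370 per library. Counting limits cover counting error only. Columns of other samples numbered 0.

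Log2(FPKM + 1) values were fitted with limma 3.58.1 in R 4.3.3 (trend and robust, two-sided) for the 10913 genes at 1 FPKM or above in 3 or more libraries, with Benjamini-Hochberg adjustment over all of them at 0.05. "Called" means past that threshold, and every adjusted p is from limma. Intervals are at 95%. The fit was tested on simulated libraries, where most changes of 1.5-fold or more were recovered and false calls ran well above the nominal rate, so an adjusted p near the threshold understates the chance of a false call. Sequence shared with other genes was measured on annotated transcripts in 100-base windows.

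The members, lists, motifs and named genes were chosen with earlier results of these data known. The text names all mtDNA members, called nuclear members, the 3 highest nuclear members of each complex, the 3 uncalled with the smallest adjusted p in each direction, isoforms, members with no read, and in each list the called genes and up to 2 with the smallest p. A gene that the rule takes is not reported here. Other genes named were chosen after their values were seen. Alternatives covered pseudocount, filter, scaling, limma-voom on recovered reads, exon length, a replicate block and leaving out each library. A correction for exon length with transcript GC content was added after seeing the data, and GC content of the genome was not used. Sequences are from GENCODE M21 transcripts and RefSeq promoters (GRCm38.p6).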

Additional observations from a re-analysis of the deposited data

How the results depend on the processing

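Of the nuclear members, 1 was called higher in 17 of 18 alternatives and 0 when a mean of at least 5 FPKM was required, because Ndufaf4 was then not tested. Nuclear members called lower numbered 0 to 5 with a library left out, 5 of them without control replicate 1, where 481 of 10821 genes were called lower. The single mtDNA call was less stable. The count was 0 with no filter on low values, 0 with protein-coding totals, 0 with nuclear protein-coding totals, 4 with limma-voom, 4 with the exon length correction, 3 with the exon length and GC correction, and 0 to 2 with a library left out. The 4 were mt-Nd1, mt-Nd2, mt-Co1 and mt-Cytb. Same-numbered libraries did not deviate together (correlations of -0.0888, -0.0438 and -0.0586), and those with different numbers gave -0.0425 to 0.094. With 3 libraries a group these values cannot settle whether the numbers pair libraries, and the labels used here do not say. With the replicate block 0 mtDNA members were called higher, and the block moved the calls over all genes to 439 higher and 249 lower. Over all genes 612 were called higher and 354 lower, which became 221 and 109 with no filter, 869 and 469 with limma-voom, and 330 to 726 and 193 to 481 with a library left out. Rescaling to protein-coding totals gave 478 higher and 497 lower, 49.0% higher beside 63.4% in the fit as reported, and nuclear protein-coding totals gave 479 and 485. The 6 higher and 2 lower calls in the pathway lists became 2 and 1 with no filter, and 2 to 7 and 0 to 12 with a library left out, the 12 without control replicate 1. The lower calls numbered 4 with either rescaling, and 1 with the replicate block alone or with the exon length correction. The cause of these shifts was not tested. The shares of reads moved by less than the spread between replicates, from -0.0603 to -0.00241 percentage points for nuclear members and from 0.135 to 0.228 for mtDNA members.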
